A study of Mus musculus with 12 samples.

Results

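Genes of the hypoxia response that lie outside glycolysis were followed in mouse gastruloids, 10 in all: the transcription factor gene Hif1a and 9 genes known as its targets, namely Vegfa, Bnip3, Egln1, Egln3, Ndrg1, Adm, P4ha1, P4ha2 and Kdm3a. They were chosen by name, and the counts of all RefSeq transcripts of a gene were added up. The files list 38911 genes, 26382 of them with at least 1 count, and all 10 were among the 16966 with enough counts to be tested. Gastruloids are aggregates of embryonic stem (ES) cells that form mesoderm and neural tissue and elongate along a body axis. All were grown from E14TG2a cells, an established mouse ES cell line kept in 2iLIF medium, seeded at 200 cells each, given a pulse of a Wnt pathway activator and harvested on day 4, and polyA RNA was sequenced. Between day 3 and day 4 the medium held 21.25 mM glucose (1× glucose, the control), no glucose (0× glucose), 63.75 mM glucose (3× glucose) or 21.25 mM glucose with 5 mM 2-deoxy-D-glucose (2-DG, a glucose analog that inhibits hexokinase). Each of the 4 groups has 3 libraries, each made from a pool of gastruloids, with 1 library each from ES cell passages 13, 15 and 16. The study set these treatments side by side to see whether 2-DG acts through glucose metabolism. No library was placed under low oxygen, so the series holds no hypoxic reference for these genes.

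Cells sense oxygen through the stability of the HIF-1α protein, which Hif1a encodes. Prolyl hydroxylases, among them the products of Egln1 and Egln3, use oxygen to mark HIF-1α, and the VHL ubiquitin ligase then leads it to breakdown. When oxygen falls, HIF-1α persists, pairs with ARNT and switches on genes for glucose breakdown and also for vessel growth, mitophagy, collagen modification and histone demethylation. The hydroxylase genes are themselves targets, which closes a feedback loop. RNA counts show the level of these transcripts and not that of the HIF-1α protein.

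HIF-1 binds DNA at the core ACGTG or GCGTG, and promoters were read for these letters on either strand. RefSeq gives windows of 300 bases around a start site (250 before it and 50 from it on, GRCm38.p6), and 9 of the 10 genes have at least 1; Ndrg1 has none. ACGTG stood in a window of 7 of these 9 genes, against 21.8% of the 27025 genes with a window. GCGTG stood in 7 of 9, against 35.2%. For Vegfa both stood only in a window inside the gene (chr17:46025114-46025413). Its window at the annotated start of the gene (chr17:46032328-46032627) held 0 matches. The Hif1a window (chr12:73907617-73907916) also lies inside the annotated gene. The letters CACGTG, a site of other basic helix-loop-helix factors that holds ACGTG on both strands, were in the windows of Bnip3 and Hif1a, and in 8.09% of all genes. The genes were named as HIF targets beforehand, so these counts describe them and are no test, and a match is not a shown binding site. The 250 bases before the start are printed for 4 genes. They are Bnip3, Egln1 and Egln3, whose levels followed the ES cell passage, and P4ha2. P4ha2 was the 1 gene of the 10 called with 2-DG in the fit without the passage. They read 5′ to 3′ on the strand of the gene, with each match to either core, or to its reverse complement, in capitals.

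Bnip3, chr7:138909507-138909756, minus strand: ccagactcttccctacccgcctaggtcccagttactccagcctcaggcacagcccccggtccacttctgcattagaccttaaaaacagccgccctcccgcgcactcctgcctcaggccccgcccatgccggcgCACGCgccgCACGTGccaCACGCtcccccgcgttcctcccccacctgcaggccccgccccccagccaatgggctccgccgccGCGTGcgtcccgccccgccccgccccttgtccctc

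Egln1, chr8:124949255-124949504, minus strand: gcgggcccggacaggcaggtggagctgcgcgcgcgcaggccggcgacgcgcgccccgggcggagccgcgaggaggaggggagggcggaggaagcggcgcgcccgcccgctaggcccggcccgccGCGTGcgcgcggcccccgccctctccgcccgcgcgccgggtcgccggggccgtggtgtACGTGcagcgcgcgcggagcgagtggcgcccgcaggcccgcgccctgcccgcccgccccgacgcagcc

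Egln3, chr12:54203875-54204124, minus strand: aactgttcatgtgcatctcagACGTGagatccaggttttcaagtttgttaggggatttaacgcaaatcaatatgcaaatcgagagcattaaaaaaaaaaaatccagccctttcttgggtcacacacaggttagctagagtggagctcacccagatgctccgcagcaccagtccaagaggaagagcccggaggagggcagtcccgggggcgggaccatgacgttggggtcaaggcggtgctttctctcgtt

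P4ha2, chr11:54100674-54100923, plus strand: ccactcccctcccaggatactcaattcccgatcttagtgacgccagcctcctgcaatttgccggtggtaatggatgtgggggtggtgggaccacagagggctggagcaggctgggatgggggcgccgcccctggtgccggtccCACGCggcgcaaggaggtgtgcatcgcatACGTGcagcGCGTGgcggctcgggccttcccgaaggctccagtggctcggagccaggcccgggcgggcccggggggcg

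The Bnip3 window holds 5 matches, of which 2 are the 2 strands of its CACGTG stretch. That stretch begins at position -108 from the start. Egln1 has 2 matches and P4ha2 has 4, of which 1 lies past the start and is not printed. Egln3 has 1 match, at position -229. Bnip3, Egln1 and Egln3 were each highest in passage 13 under all 4 treatments, with another order of the other passages for Egln3. Their windows differed in how many matches they hold.

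The libraries held 31902471 to 45956080 counts, and no pair shared more than 9.67% of its values. As a check of the labelled material, gastruloid markers were read in bulk RNA. Levels are CPM, counts scaled to library size with TMM factors. Of 9 primitive streak and presomitic mesoderm markers, T, Tbx6, Hes7 and Dll3, named after their values were seen, stood at 64.6 CPM or more in all 12 libraries, and in the same list Eomes reached at most 0.894 CPM and Mixl1 7.49 CPM. Blood and endothelial markers were low: Hbb-bh1, Hba-x and Emcn were at 0 in all libraries, Kdr reached 8.97 CPM, Tal1 2.84 CPM, Etv2 2.22 CPM and Runx1 1.40 CPM, these too named after their values were seen. The libraries of passage 13 stood apart from those of passages 15 and 16, with 41.8% and 40.2% of all genes tested differing, and levels of the 10 genes are therefore given per passage where a result turns on them. In bulk RNA, fewer cells of a type and less RNA per cell cannot be told apart.

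The 10 genes spanned a wide range of levels. Per kilobase of exon, which allows genes to be compared, Hif1a was highest in 1× glucose, at 42.7 CPM per kb ± 4.49 (SD, n = 3), followed by Bnip3 (38.4 ± 15.4), Kdm3a (24.4 ± 1.33), P4ha1 (20.1 ± 2.58), Egln1 (18.3 ± 4.76) and Vegfa (14.3 ± 1.44). P4ha2 (4.54 ± 0.441) and Egln3 (3.57 ± 0.772) were lower, and Ndrg1 (0.306 ± 0.0776) and Adm (0.153 ± 0.0581) were lowest, Ndrg1 with 61 counts or more in every library and Adm with 0 to 32. Of neighbours in this order, Hif1a and Bnip3, Bnip3 and Kdm3a, P4ha1 and Egln1, and Egln1 and Vegfa differed by less than the larger of their SDs, and the others by more. In 0× glucose Bnip3 stood just above Hif1a, at 45.5 against 45.4, far inside its SD of 13.9. In 2-DG Vegfa (20.7 ± 5.09) stood above Egln1 (18.3 ± 6.93), again within the spread.

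**Figure D1:**
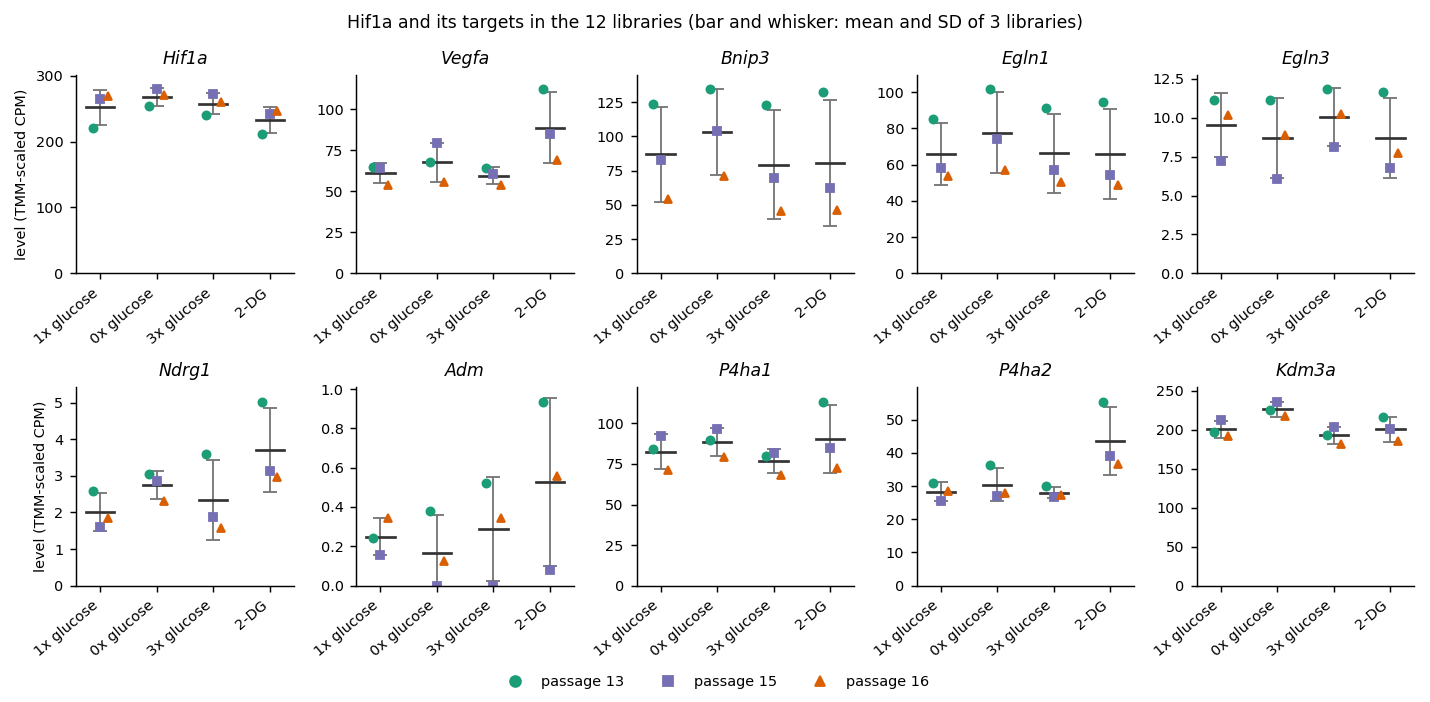
TMM-scaled CPM (vertical axis, from 0) of each gene in the 12 libraries, by treatment (horizontal axis) and ES cell passage (colour and marker), with the mean and SD of the 3 libraries of a group. Bnip3, Egln1 and Egln3 are highest in passage 13 under all 4 treatments, and Hif1a is lowest in passage 13 throughout. P4ha2, Vegfa and Ndrg1 lie above every 1× glucose library in all 3 2-DG libraries.

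P4ha2 is 1 of the 2 genes here for the catalytic α subunits of collagen prolyl 4-hydroxylase. It was the gene called higher with 2-DG in the fit without the passage. With the passage as a block, Vegfa and Ndrg1 were called higher too. P4ha2 lies at chr11:54100924-54131668 (GRCm38.p6). In 1× glucose it stood at 31.0, 25.5 and 28.6 CPM in passages 13, 15 and 16, and in 2-DG at 55.5, 38.9 and 36.6 CPM. Every 2-DG library was above every 1× glucose library, as for 18.3% of all genes tested, and the difference was largest in passage 13. The log2 fold change was 0.62 (SE 0.16, edgeR's quasi-likelihood test, adjusted p = 0.0236), that is 43.7 ± 10.3 against 28.4 ± 2.75 CPM (SD, n = 3). It was the only 1 of the 10 genes past the threshold of 0.05, whereas 17.6% of all genes tested passed it, 9.12% higher and 8.51% lower. The share of the 10 genes was thus near the background. The call was lost without the 1× glucose library of passage 15 (adjusted p = 0.0918), the 1× glucose library of passage 16 (0.0597) or the 2-DG library of passage 13 (0.0741), over a range of 0.000266 to 0.236 for all alternatives. Its log2 fold change stayed between 0.41 and 0.73 over these alternatives.

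P4ha1, the other α subunit gene (chr10:59323197-59373304), did not pass. It stood at 84.1, 92.5 and 71.4 CPM in 1× glucose and at 114, 85.1 and 72.6 CPM in 2-DG, in the order of the passages. Only the passage 13 library of 2-DG left the range of the control. It differed by a log2 fold change of 0.13 (95% interval -0.21 to 0.47, adjusted p = 0.633), and whether P4ha1 and P4ha2 responded differently was not tested. Reads were apportioned unevenly to the transcripts of both: the most abundant P4ha2 transcript took 59.9% to 78.1% of the gene's counts in a library, and that of P4ha1 29.6% to 49.6%.

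Vegfa, which encodes the main growth factor for blood vessels (chr17:46016993-46032377), was higher in 2-DG in every passage without passing the threshold in the fit of the 4 groups. Its levels in 1× glucose were 65.0, 64.3 and 54.0 CPM, against 112, 85.1 and 69.1 CPM in 2-DG. The groups did not overlap, as for 18.3% of all genes tested in this direction, and 32.2% were likewise higher in every passage. Its log2 fold change was 0.54 (SE 0.17, edgeR, 95% interval 0.16 to 0.92, adjusted p = 0.0543), and with the passage as a block it was 0.52 (SE 0.096, adjusted p = 0.00153). Without the 2-DG library of passage 13 it was 0.33, and with only the most abundant transcript 0.28, both short of the threshold. Counts of Vegfa were spread by the authors' software over 10 transcripts, of which the most abundant held 20.3%.

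Ndrg1, a stress and differentiation gene named for its repression by N-myc (chr15:66929318-66969641), showed the same course at a much lower level. It stood at 2.59, 1.60 and 1.86 CPM in 1× glucose and at 5.04, 3.13 and 2.98 CPM in 2-DG, from 61 to 172 counts a library. Here too the groups did not overlap, as for 18.3% of all genes tested. It was higher by a log2 fold change of 0.88 (SE 0.33, edgeR, adjusted p = 0.0904, and 0.00191 with the passage as a block).

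Hif1a itself (chr12:73901324-73947554) was slightly lower in 2-DG in each passage, as were 30.9% of all genes tested. Its levels were 221, 265 and 269 CPM in 1× glucose and 211, 241 and 247 CPM in 2-DG. The groups overlapped, because the passage 13 library was the lowest in both. The difference was -0.11 on the log2 scale (SE 0.086, edgeR, adjusted p = 0.422), and with the passage as a block it was -0.11 (SE 0.038, adjusted p = 0.0402).

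The hydroxylase genes of the feedback loop and the remaining targets gave differences near 0 with intervals of unequal width. Egln1 (chr8:124908587-124949254), whose product is the main oxygen sensor acting on HIF-1α, stood at 85.2, 58.1 and 53.6 CPM in 1× glucose and at 94.5, 54.3 and 49.0 CPM in 2-DG. The passages lay far further apart than the treatments. Its log2 fold change was 0.0058 (95% interval -0.69 to 0.70), and with the passage as a block -0.022 (-0.16 to 0.12). Egln3 (chr12:54178981-54203874), a further HIF prolyl hydroxylase gene, gave -0.13 (-0.72 to 0.47), and -0.14 (-0.36 to 0.087) with the block. Bnip3 (chr7:138890836-138909506), a mitophagy receptor gene of the outer mitochondrial membrane, gave -0.11 (-1.13 to 0.91) and -0.16 (-0.41 to 0.077). Kdm3a (chr6:71588970-71632990), a demethylase gene for lysine 9 of histone H3, gave 0.0031 (-0.15 to 0.15), at 201 ± 15.9 CPM against 200.5 ± 10.97. Adm (chr7:110627657-110629820), which encodes the vasodilating peptide adrenomedullin, had only 3 to 32 counts in a library of either group, and its log2 fold change of 1.05 had an SE of 1.01.

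When the passage was a block in the fit, the 10 genes gave 4 calls in 2-DG against 1× glucose: P4ha2, Vegfa and Ndrg1 higher and Hif1a lower. The background rose with it, to 41.3% of all genes tested, of which 21.1% were higher and 20.2% lower. In passages 15 and 16 alone, a fit chosen after seeing the data, the block also gave 4 calls, with P4ha2, Vegfa and Ndrg1 higher and Bnip3 lower. The 41.3% belongs to the fit of all passages and is not the background of these calls. A large share of all genes tested was called in passages 15 and 16 alone too. The 4 calls there are therefore not read as setting the 10 genes apart.

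**Figure D2:**
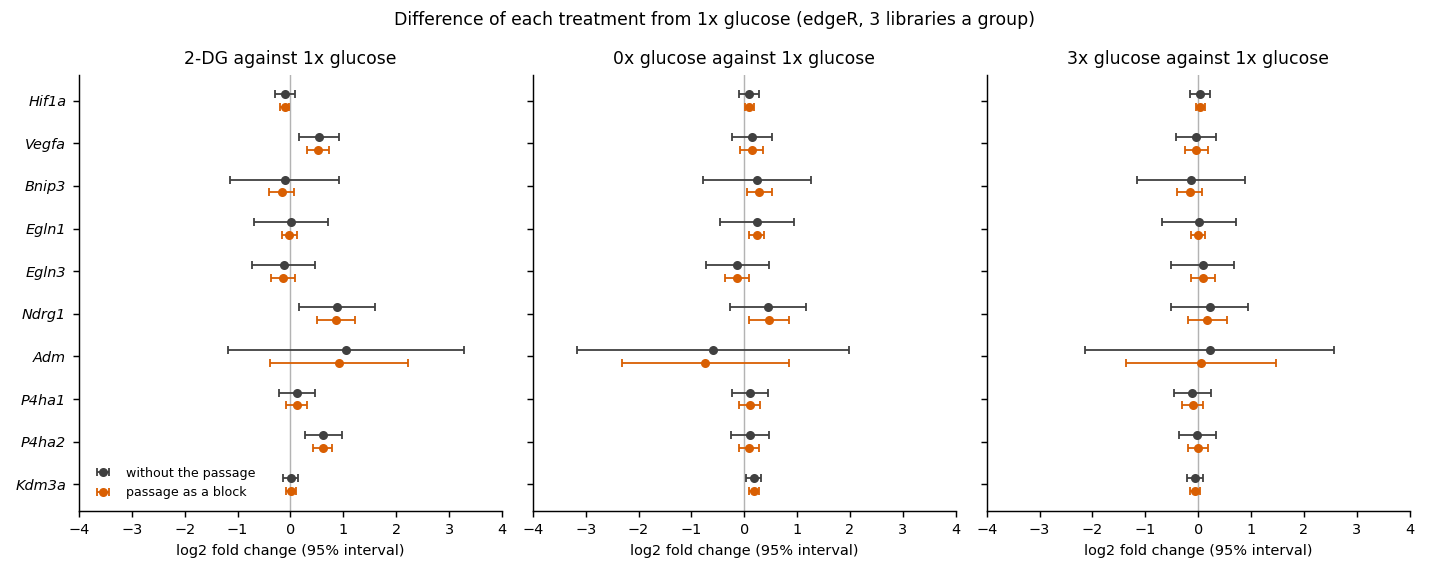
Log2 fold change with its 95% interval (horizontal axis) of each gene in 2-DG, 0× and 3× glucose against 1× glucose, without the passage (grey) and with it as a block (orange), from edgeR with 3 libraries a group. P4ha2, Vegfa and Ndrg1 lie above 0 in 2-DG with both fits, and the intervals of all 10 genes are narrower with the block.

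Removing glucose moved none of the 10 genes past the threshold. In 0× against 1× glucose, 8 of the 10 were higher and 7 were higher in every passage, as for 17.2% of all genes tested, but edgeR and DESeq2 each called 0 of 10, with 1 of 10 at an unadjusted p under 0.05, as for 1.8% of all genes tested. Of all genes tested, 0.0118% were called. The gene with the unadjusted p under 0.05 was Kdm3a, at 225, 236 and 217 CPM in 0× glucose against 197, 213 and 192 CPM. These groups did not overlap, as for 2.69% of all genes tested in this direction, and the log2 fold change was 0.18 (95% interval 0.027 to 0.32; with the block 0.18, adjusted p = 0.301). Bnip3 stood at 134, 104 and 71.3 CPM against 124, 82.7 and 54.3 CPM, a log2 fold change of 0.25 (-0.77 to 1.27), and Egln1 at 102, 74.1 and 57.0 CPM, a log2 fold change of 0.24 (-0.46 to 0.94). Hif1a gave 0.089 (-0.10 to 0.28), Vegfa 0.15 (-0.23 to 0.53), Ndrg1 0.44 (-0.28 to 1.16), P4ha1 0.10 (-0.24 to 0.44) and P4ha2 0.10 (-0.25 to 0.46). Egln3, at -0.13 (-0.73 to 0.47), and Adm, with 16 counts in the 3 libraries together against 33, were the genes below 0. A change of the size that P4ha2 showed with 2-DG, in either direction, lay outside these intervals for Hif1a, Vegfa, P4ha1, P4ha2 and Kdm3a and inside them for the others. With the passage as a block, the intervals were 0.044 to 0.52 for Bnip3 and 0.094 to 0.37 for Egln1, and neither gene was called.

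Raising glucose moved none of the 10 genes past the threshold either. In 3× against 1× glucose, 5 genes were higher and 5 lower, edgeR and DESeq2 each called 0 of 10, and 0 of 10 had an unadjusted p under 0.05, where 0% of all genes tested were called and 1.05% had such a p. Vegfa, Bnip3, P4ha1 and Kdm3a, 4 of the 10, were lower in every passage, as were 15.1% of all genes tested. Bnip3 stood at 123, 69.5 and 45.6 CPM against 124, 82.7 and 54.3 CPM, and gave -0.13 (95% interval -1.15 to 0.89). Vegfa gave -0.040 (-0.42 to 0.34), P4ha1 -0.11 (-0.45 to 0.23), P4ha2 -0.015 (-0.37 to 0.34) and Kdm3a -0.055 (-0.20 to 0.093). Hif1a gave 0.033 (-0.16 to 0.22), Egln1 0.0098 (-0.69 to 0.71), Egln3 0.081 (-0.51 to 0.67) and Ndrg1 0.21 (-0.51 to 0.94). Adm had 32 counts in the 3 libraries, against 33.

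Set against 0× glucose, 2-DG again gave 1 call, P4ha2, against 18.9% of all genes tested. P4ha2 stood at 36.3, 27.0 and 28.0 CPM in 0× glucose, all below the lowest 2-DG library, as for 19.3% of all genes tested, and the log2 fold change was 0.52 (SE 0.16, edgeR, adjusted p = 0.0449). This call was lost without the 0× glucose library of passage 15 or 16 or the 2-DG library of passage 13 or 15, with adjusted p reaching 0.153 and the log2 fold change going down to 0.31, without the 2-DG library of passage 13. With the passage as a block, 6 genes were called, against 43.1% of all genes tested. P4ha2 (0.51, adjusted p = 0.000699) and Vegfa (0.38, 0.00897) were higher in 2-DG. Lower in 2-DG were Bnip3 (-0.45, 0.00742), Egln1 (-0.25, 0.0078), Hif1a (-0.20, 0.00174) and Kdm3a (-0.17, 0.00735). In 3× against 0× glucose, 0 of 10 were called by edgeR and by DESeq2 and 1 of 10 had an unadjusted p under 0.05, where 0.0118% of all genes tested were called and 4.33% had such a p. That gene was Kdm3a, at 193, 203 and 182 CPM in 3× glucose, which with the block was lower by a log2 fold change of -0.23 (adjusted p = 0.0412, against 0.802% of all genes tested). These comparisons share their control libraries with those above and are no separate evidence.

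The ES cell passage separated most of these genes more widely than the treatment. Each passage holds 1 library of each of the 4 treatments, and as far as the labels tell it is 1 ES cell culture, so that the p-values below measure the spread between libraries and not between cultures of a passage. Passage cannot be told apart from anything else that set these cultures apart. In passage 15 against 13, 7 of the 10 genes were called, 1 higher and 6 lower, against 41.8% of all genes tested, of which 20.8% were higher and 20.9% lower. In passage 16 against 13, 8 were called, 1 higher and 7 lower, against 40.2%, of which 20.4% were higher and 19.7% lower. Every 1 of these 15 calls was kept when any of the 8 libraries of the passages compared was left out. Between passages 16 and 15, 2 were called, against 4.2%, and these were less stable: the call of Bnip3 was kept in 3 of 8 such fits (without the 0× glucose library of passage 16 or either 2-DG library, adjusted p up to 0.0869 in the rest) and that of Egln3 in 1 (without the 2-DG library of passage 16, up to 0.147).

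Bnip3 fell from passage to passage. Its levels in passage 13 were 124, 134, 123 and 133 CPM in 1×, 0× and 3× glucose and in 2-DG, those in passage 15 were 82.7, 104, 69.5 and 62.4 CPM, and those in passage 16 were 54.3, 71.3, 45.6 and 46.3 CPM. The order of the passages was the same under all 4 treatments, and passage 13 did not overlap with either of the others. For Bnip3 the log2 fold change was -0.72 (SE 0.094, edgeR, adjusted p = 0.000191) in passage 15 and -1.27 (SE 0.095, adjusted p = 6.23e-06) in passage 16, and passage 16 was lower than passage 15 by -0.55 (adjusted p = 0.0172).

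Egln1 followed the same order. It stood at 85.2, 102, 91.0 and 94.5 CPM in passage 13 and at 58.1, 74.1, 57.0 and 54.3 CPM in passage 15. In passage 16 it stood at 53.6, 57.0, 50.3 and 49.0 CPM. Again passage 13 was the highest under all 4 treatments and did not overlap with the others. No overlap with passage 13, on the lower side, was found for 4 of the 10 genes in passage 15 (Bnip3, Egln1, Egln3 and Adm), against 9.87% of all genes tested, and for 4 in passage 16 (Bnip3, Egln1, Egln3 and P4ha1), against 10.3%. For Egln1 the log2 fold changes were -0.62 (SE 0.054, edgeR, adjusted p = 1.67e-05) and -0.83 (SE 0.054, adjusted p = 3.25e-06).

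Egln3 was also highest in passage 13 but lowest in passage 15. It stood at 11.2, 11.2, 11.8 and 11.7 CPM in passage 13, at 7.21, 6.03, 8.14 and 6.78 CPM in passage 15, and at 10.2, 8.91, 10.2 and 7.72 CPM in passage 16. The 4 libraries of passage 13 thus lay close together and above all others. The log2 fold changes were -0.71 (adjusted p = 0.000152) and -0.31 (adjusted p = 0.0151), and passage 16 was higher than passage 15 by 0.40 (adjusted p = 0.0375). Both hydroxylase genes thus had passage 13 as their highest and differed in the order of the others. Passage 13 was highest under all 4 treatments for Bnip3, Egln1, Egln3, Ndrg1 and P4ha2, and for 3179 of the 16966 genes tested (18.7%).

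Hif1a moved the other way. It was lowest in passage 13 under all 4 treatments, at 221, 254, 240 and 211 CPM in 1×, 0× and 3× glucose and 2-DG, and at 265, 280, 272 and 241 CPM in passage 15. The passages overlapped across treatments and separated within each. It was higher by a log2 fold change of 0.19 (SE 0.033, edgeR, adjusted p = 0.00108) in passage 15 and 0.18 (SE 0.033, adjusted p = 0.00171) in passage 16. Where only the most abundant of its 5 transcripts was counted, the difference of passage 16 from 13 turned to -0.084. That transcript took 21.8% to 39.9% of the gene's counts in a library.

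The other 6 genes differed among themselves. P4ha2 gave -0.35 (adjusted p = 0.00328) in passage 15 and -0.31 (0.00664) in passage 16, and Ndrg1 -0.60 (0.00698) and -0.71 (0.00268). Vegfa and P4ha1 were called in passage 16, at -0.38 (0.0044) and -0.33 (0.00689), and not in passage 15, at -0.071 (95% interval -0.26 to 0.11) and -0.039 (-0.21 to 0.13). Kdm3a was not called in either, at 0.036 (-0.045 to 0.12) and -0.10 (-0.18 to -0.019). Adm had 73 counts in the 4 libraries of passage 13, 9 in those of passage 15, of which 2 libraries had 0, and 55 in those of passage 16. Its log2 fold change in passage 15 was -2.95 (SE 0.65, adjusted p = 0.00455), a value that rests on these few counts.

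**Figure D3:**
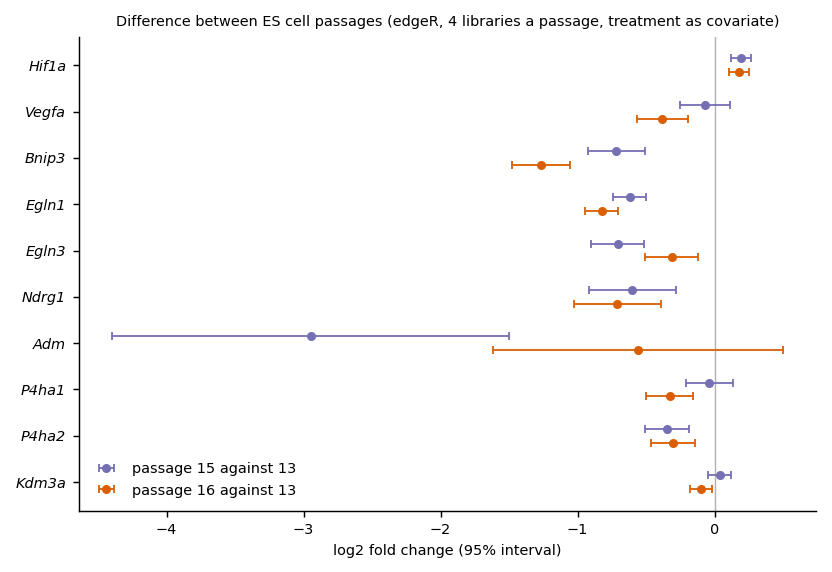
Log2 fold change with its 95% interval (horizontal axis) of passages 15 and 16 against passage 13 for each gene, from edgeR with 4 libraries a passage and the treatment as covariate. Hif1a lies above 0 in both, and Bnip3, Egln1, Egln3, Ndrg1 and P4ha2 lie below 0 in both.

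The variation of log2 CPM over the 12 libraries was divided into shares for treatment, passage and a remainder. Passage took 89.0% of it for Egln1, 84.5% for Bnip3 and 82.6% for Egln3, against a median of 31.8% over all genes tested. It also took more than treatment for Adm (68.0%), P4ha1 (54.1%) and Hif1a (53.9%). Treatment took the larger share for P4ha2 (67.3%), Kdm3a (61.0%), Vegfa (55.7%) and Ndrg1 (47.2%), against a median of 37.8%. For Kdm3a the highest group was 0× glucose, whereas for the other 3 it was 2-DG.

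**Figure D4:**
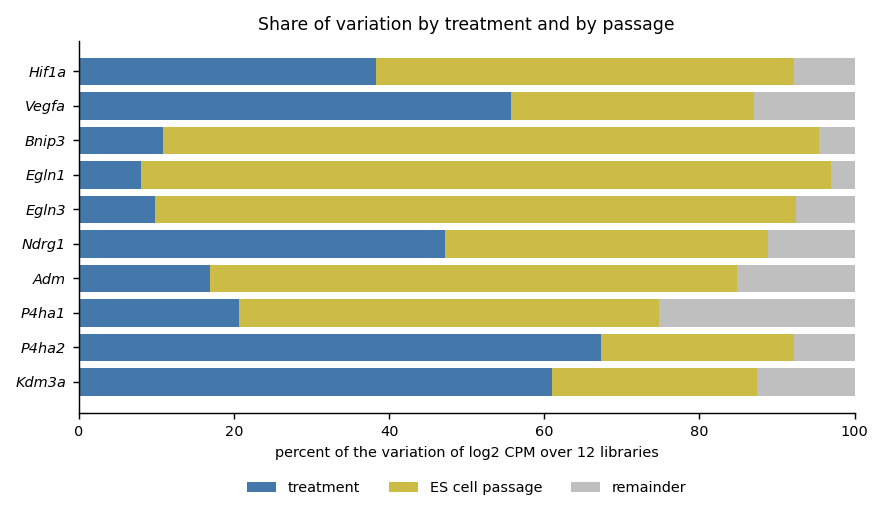
Percent of the variation of log2 CPM over the 12 libraries (horizontal axis) taken by treatment, ES cell passage and the remainder, by gene. Passage takes over 80% for Bnip3, Egln1 and Egln3, and treatment takes the most for P4ha2, at 67.3%.

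Other genes around these were read from lists. Of 16 genes of the HIF machinery (partners, hydroxylases, VHL complex and co-activators), 1 was called in 2-DG against 1× glucose, where 17.6% of all genes were (2 higher and 6 lower with the passage as a block, where 41.3% of all genes were called). It was Siah2, a ubiquitin ligase gene acting on the hydroxylases, at 14.5 ± 2.20 against 7.28 ± 0.779 CPM (log2 fold change 1.00, edgeR, adjusted p = 0.0015). Of 32 other non-glycolytic hypoxia targets tested, 1 was higher and 1 lower: the histone demethylase gene Kdm4c (0.45, adjusted p = 0.0139) and the chemokine receptor gene Cxcr4 (-0.88, adjusted p = 0.00193). With the block, 9 were higher and 7 lower. Their median log2 fold change was 0.018, against 0.0023 over all genes tested. Of 19 glycolytic hypoxia targets, Gapdh was higher (0.25, adjusted p = 0.0434) and Hk2 lower (-0.38, adjusted p = 0.00584), and the median was -0.0024, with 6 higher and 6 lower under the block. The hypoxia targets of either kind thus had a median near that of all genes.

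Close relatives of the 10 genes moved as follows. Among 14 relatives and receptors of VEGF and adrenomedullin, Vegfb rose (0.42, adjusted p = 0.0275) and the receptor gene Flt4 fell (-0.92, adjusted p = 0.028, at 1.65 against 3.11 CPM), and the block gave 4 higher and 4 lower. Pink1, a kinase gene of mitophagy, was the 1 of 7 mitophagy genes called (0.47, adjusted p = 0.00701), and Ndrg4 the 1 of 3 other Ndrg genes (-0.43, adjusted p = 0.0369). The block gave 1 higher and 2 lower of the mitophagy genes and 2 lower of the Ndrg genes. Kdm4c was the 1 of 5 other demethylase genes for lysine 9 of histone H3, of which the block called 2, both higher. Of 12 partners in collagen hydroxylation and folding, 4 were higher and 0 lower (6 and 0 with the block), against 9.12% and 8.51% of all genes tested. The highest was P4hb, which encodes the β subunit that P4HA2 and P4HA1 share, at 1159, 978 and 916 CPM in 2-DG against 540, 536 and 517 CPM (log2 fold change 0.94, SE 0.075, adjusted p = 6.29e-05). The smallest of the 4 was the collagen chaperone gene Serpinh1 (0.30, adjusted p = 0.0346).

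Genes of the ATF4 and endoplasmic reticulum (ER) stress response were read as a further list, chosen with earlier results of these data known. All 13 were called higher in 2-DG than in 1× glucose, against 9.12% of all genes tested, a description and no test. Their median log2 fold change was 1.17, from Sesn2, a stress-induced regulator of mTORC1 (0.42), to Chac1, which breaks down glutathione (2.91). Their summed level was 3720 to 4566 CPM in 2-DG against 1967 to 2075 CPM in 1× glucose, and in 0× and 3× glucose it was 2109 to 2227 and 1906 to 2095 CPM, with 0 of 13 called in either by edgeR and 1 of 13 at an unadjusted p under 0.05 in each. P4hb is a chaperone of the ER as well as a subunit of the collagen hydroxylase. The part of this response in the levels of P4ha2, Vegfa and Ndrg1 was not tested.

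Markers of cell types were read in 2-DG against 1× glucose, where 9.12% of all genes tested were higher and 8.51% lower. Primitive streak and presomitic mesoderm markers had 4 of 9 lower, with summed levels of 476 to 739 CPM against 968 to 1172 CPM. Neural markers had 3 higher and 1 lower of 7 tested, at 104 to 255 CPM against 57.4 to 160 CPM. Pluripotent markers had 1 of 6 higher, at 58.4 to 72.1 against 36.9 to 51.9 CPM. Endothelial markers had 1 of 7 lower, at 2.17 to 2.70 against 3.71 to 10.7 CPM, and definitive endoderm markers 1 of 5 lower, at 21.5 to 74.2 against 25.01 to 193 CPM. Blood (3 tested) and fibroblast markers (5 tested) had 0 called by edgeR without the block (0 and 1 at an unadjusted p under 0.05), and summed to 1.26 to 1.52 and 75.0 to 103 CPM in 2-DG against 1.25 to 2.87 and 69.0 to 133 CPM. With the passage as a block, where 21.1% of all genes were higher and 20.2% lower, the counts were 7 lower for streak and mesoderm, 5 higher and 1 lower for neural, 4 higher for pluripotent, 3 lower for endothelial, 1 higher and 3 lower for endoderm, 1 lower for blood, and 1 higher and 1 lower for fibroblast markers. The endoderm sums rest mostly on Cer1 and Trh, as no other gene of that list passed 4.21 CPM in any library. The fibroblast sums rest mostly on Fbn1, at 59.1 to 120 CPM over all libraries. Cer1, Trh and Fbn1 are named after their values were seen. The part of these cell types in the differences between treatments was not tested.

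The lists also differed between passages. Of the 19 glycolytic hypoxia targets, 16 were lower in passage 15 and 16 in passage 16 than in passage 13, with medians of -0.38 and -0.56, where about 20.9% and 19.7% of all genes tested were lower and the medians over all genes were -0.015 and -0.014. Their summed level was 10522 to 10870 CPM in passage 13, 7744 to 8326 CPM in passage 15 and 7042 to 7475 CPM in passage 16, with no overlap. Of the 32 other non-glycolytic targets, 19 and 23 were lower, with medians of -0.24 and -0.35. The HIF machinery genes went with Hif1a, 12 and 10 of 16 being higher and 1 and 3 lower, with medians of 0.17 and 0.15. Of the 13 ATF4 and ER stress genes, 0 and 3 were called, all 3 of them lower. The targets inside and outside glycolysis thus both had lower medians in passages 15 and 16, as had the 10 genes, with medians of -0.47 and -0.36.

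Markers of cell types were also compared with passage 13, where 20.8% of all genes tested were higher and 20.9% lower in passage 15, and 20.4% and 19.7% in passage 16. The summed level of definitive endoderm markers was 21.5 to 27.6 CPM in passage 13, 74.2 to 217 CPM in passage 15 and 33.9 to 111 CPM in passage 16, with 4 and 5 of 5 markers higher. These sums rest mostly on Cer1 and Trh, as no other gene of that list passed 4.21 CPM in any library. Neural markers summed to 144 to 254 CPM in passage 13, against 62.9 to 123 and 49.7 to 103 CPM, and in each 4 of 7 were lower and 1, Olig2, was higher. Endothelial markers were higher for 4 and 5 of 7 and lower for 1, Pecam1, in passage 16, and summed to at most 15.9 CPM. Cer1, Trh, Olig2 and Pecam1 are named after their values were seen. Streak and mesoderm markers had 1 higher and 4 lower of 9 in passage 15, and 4 higher and 2 lower in passage 16. Pluripotent markers had 1 higher and 4 lower of 6 in passage 15, and 1 higher and 1 lower in passage 16. Blood markers had 2 and 1 of 3 higher, and fibroblast markers 1 and 3 of 5. The part of these cell types in the passage differences was not tested.

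**Figure D5:**
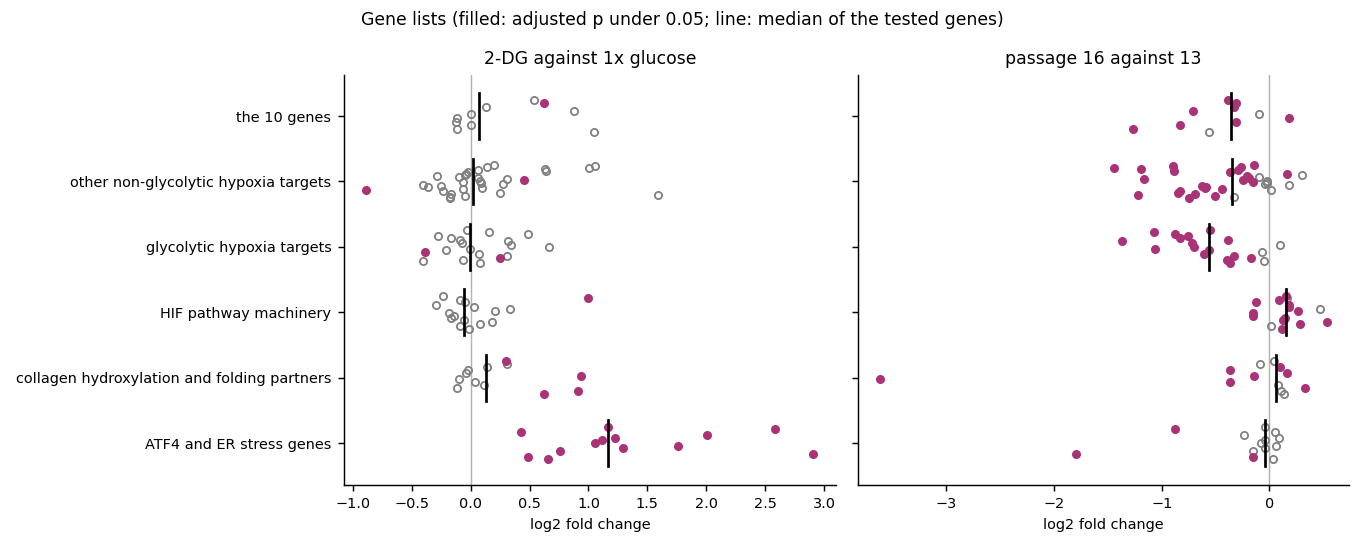
Log2 fold changes (horizontal axis) of the tested genes of 6 lists (rows) in 2-DG against 1× glucose and in passage 16 against 13, with filled points for an adjusted p under 0.05 in edgeR and a line at the median. The ATF4 and ER stress genes lie above 0 in 2-DG (median 1.17). Both lists of hypoxia targets have medians near 0 in 2-DG and below 0 in passage 16. All lists were chosen with earlier results of these data known.

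The genes most like each of 3 members in log2 CPM over the 12 libraries, which share treatments and passages, were named without a test. Egln1 was followed most closely by Pfkl (Pearson r = 0.987), Pdk1 (0.978), Pkm (0.977), Grhpr (0.970) and Ak4 (0.970), of which Pfkl and Pkm encode glycolytic enzymes and Pdk1 a kinase that restrains pyruvate dehydrogenase. Hif1a was followed by Bod1l (0.984), Dicer1 (0.978), Rad21 (0.978), Usf3 (0.9749) and Map4k4 (0.974). P4ha2 was followed by Apoe (0.978), Map2k6 (0.977), Lrrc4b (0.976), Rnf185 (0.966) and Sars (0.963), of which Sars encodes seryl-tRNA synthetase.

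Some levels rest on annotation that could blur them. In GENCODE M21 an antisense gene covers the whole of Hif1a and the whole of Adm, and antisense genes cover 3712 bases of Bnip3 and 1501 bases of Ndrg1. The library kit keeps strand, but whether the counting used it is not given in the sources used here, so reads from these partners cannot be told apart from those of the 4 genes. Hif1a also shares 9878 bases with Gm49321, a protein-coding gene on the same strand, which strand would not separate. The most abundant of the 6 transcripts of Kdm3a took 23.0% to 85.6% of its counts from library to library, and its sum over transcripts varied far less, from 182 to 236 CPM.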

How the data were processed

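PolyA RNA of 12 gastruloid pools was sequenced, 3 for each of 4 treatments. The authors trimmed reads with Trim Galore, aligned them with HISAT2, removed duplicates with Picard and deposited StringTie's estimated counts of 120312 RefSeq transcripts per library, as whole numbers; the processing notes name mm10, and versions and annotation are not given in the sources used here. The authors' deposited tables of fold changes and p-values from DESeq2 were not used.

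All transcripts matched a gene in the RefSeq table of GRCm38.p6, and counts were summed per gene. Genes kept by filterByExpr (16966) were fitted in R 4.3.3 with edgeR 4.0.16 (TMM factors, glmQLFit and glmQLFTest), the 4 treatments together without the passage. Passages were compared in a fit of treatment and passage. Tests are two-sided, with Benjamini-Hochberg adjustment over all genes tested and a threshold of 0.05. Standard errors come from the F statistic. Shares of variation use log2 CPM with a prior count of 2, and lengths are the union of exons in GENCODE M21. Replicates are passages of 1 cell line, so p-values measure only the spread between these samples, which may be technical. An exact permutation test of 3 against 3 could not go below p = 0.1 and was not used.

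The labels pair the libraries of a passage. Deviations from the group means correlated at 0.0963 to 0.623 in the 18 pairs of a passage and at -0.44 to 0.191 in 36 other pairs. The block is therefore given where it changes a call.

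All 10 genes are named in the comparisons with 1× glucose and with the earliest passage. In the other comparisons only those called, or with a changed sign under an alternative, are named. List genes were named by a rule: the called gene with the highest and that with the lowest log2 fold change in 2-DG against 1× glucose. Likeness was taken for Hif1a and for the members with the smallest and the largest adjusted p there. Members and lists were chosen with earlier results of these data known.

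Alternatives were no filter, a mean of at least 100 counts, median-of-ratios factors, DESeq2 1.42.0, each gene's most abundant transcript, the passage as a block, only the groups compared, no 2-DG libraries and leaving out each library. Counts were simulated with 200 genes changed by a log2 fold change of 1 in 2-DG against 1× glucose. Among 16669 genes tested, 89% of the 200 were recovered and 4.3% of calls were false. The changed genes were drawn from those with a mean of at least 100 counts. All genes shared 1 dispersion, and no passage difference was simulated. The 89% therefore does not apply to genes with fewer counts, a wider spread or a smaller change.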

Additional observations from a re-analysis of the deposited data

How the results depend on the processing

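In 2-DG against 1× glucose, the 1 call among the 10 genes became 2 with a mean of at least 100 counts and 2 with DESeq2 (P4ha2 and Vegfa), and 0 with the most abundant transcript or with only the groups compared, where fewer libraries were fitted. The replicate block on the passage gave 4, and passages 15 and 16 alone with the block, chosen after seeing the data, 4. Leaving out each library gave 0 to 2. In 2-DG against 0× glucose, the 1 call became 0 without the filter, 0 with the most abundant transcript, 0 with only the groups compared, 6 with the passage as a block, 6 in passages 15 and 16 alone with the block, and 0 to 2 with a library left out. In 3× against 0× glucose the block gave 1 call in place of 0. With the most abundant transcript, the calls were 3 in passage 15 against 13, 4 in passage 16 against 13 and 0 in passage 16 against 15. In passage 16 against 15 the 2 calls also became 1 without the filter, 6 with DESeq2, 6 without the 2-DG libraries, and 0 to 4 with a library left out. The cause was not tested. Most of these counts, also in 2-DG against 1× glucose, stand without the calls over all genes under the same setting. They are not read as results about the 10 genes. The block changed no other call of the 10 genes than those given with the results.

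Of 1073 values of single genes under alternatives, 69 changed sign, and 1 of these belonged to a call: Hif1a in passage 16 against 13, at -0.084 with the most abundant transcript. Log2 fold changes that turned were, without the filter, Egln1 (-0.016) and Kdm3a (-0.015) in 2-DG and Egln1 (-0.0087) in 3× glucose against 1× glucose, and with the block Egln1 in the same comparisons (-0.022 and -0.0067). In passages 15 and 16 alone with the block they were Egln1 (-0.12), P4ha1 (-0.049) and Kdm3a (-0.069) in 2-DG against 1× glucose and Egln3 (-0.022) and P4ha1 (-0.16) against 0× glucose. With the most abundant transcript they were Kdm3a in 2-DG (-0.83) and Egln1 in 3× glucose (-0.0048) against 1× glucose, Hif1a in 3× against 0× glucose (0.065), P4ha1 (0.078) and Kdm3a (-0.28) in passage 15 against 13, and P4ha2 in passage 16 against 15 (-0.068). Egln3 in 2-DG against 0× glucose gave -0.0019 with median-of-ratios factors, -0.0019 with DESeq2 and -0.0080 with only the groups compared. Without the 2-DG libraries, Vegfa (0.043) and P4ha1 (0.087) turned in passage 15 against 13.

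With each library left out in turn, genes whose sign changed covered these ranges. In 2-DG against 1× glucose they were -0.68 to 0.23 for Bnip3, -0.35 to 0.24 for Egln1, -0.40 to 0.019 for Egln3, -0.069 to 0.26 for P4ha1 and -0.057 to 0.059 for Kdm3a. In 0× against 1× glucose they were -0.0064 to 0.59 for Bnip3, -0.0092 to 0.47 for Egln1, -0.36 to 0.071 for Egln3 and -0.050 to 0.18 for P4ha2. In 3× against 1× glucose they were -0.051 to 0.083 for Hif1a, -0.12 to 0.025 for Vegfa, -0.60 to 0.22 for Bnip3, -0.30 to 0.24 for Egln1, -0.091 to 0.21 for Egln3, -0.23 to 0.44 for Ndrg1, -0.46 to 0.76 for Adm and -0.093 to 0.054 for P4ha2. In 2-DG against 0× glucose they were -0.58 to 0.0098 for Egln1, -0.26 to 0.22 for Egln3 and -0.17 to 0.17 for P4ha1, and in 3× against 0× glucose -0.53 to 0.016 for Egln1, -0.67 to 0.00062 for Ndrg1 and -0.19 to 0.032 for P4ha2. In passage 15 against 13 they were -0.16 to 0.040 for Vegfa and -0.090 to 0.077 for P4ha1, and in passage 16 against 15 -0.037 to 0.010 for Hif1a, -0.20 to 0.017 for Ndrg1 and -0.0096 to 0.12 for P4ha2. At 0 to 32 counts a library, the depth limits what can be said of Adm.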
